A study of Mus musculus with 17 samples.

Results

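miR-126 is the miR that vascular endothelium is best known for, and both strands of its hairpin, mmu-miR-126-3p and mmu-miR-126-5p, were on the arrays. The 2 probes were taken by name out of 569 mouse miRs, with all of their spots and their rows in the processed values. Kidneys came from C57/BL6 mice of 10 to 12 weeks, labelled female, although the study's methods give male mice. IRI samples were kidneys after 30 minutes of warm ischemia and reperfusion, sham samples were kidneys after surgery without ischemia, and 1 naive sample came from untreated mice. IRI and sham kidneys were collected on 8 days (1, 3, 5 and 7, then 10 and 14, then 21 and 30), and each of the 17 samples was a pool of 3 mice, so every arm and day was measured once and the day stands as the replicate. On each of 8 arrays the IRI pool was labelled with Cy3 and the sham pool of the same day with Cy5, and the naive pool was hybridised alone with Cy3.

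A miR is a short RNA that is cut from a hairpin precursor and guides the silencing complex to messages that pair with its seed, the bases at positions 2 to 8. Either arm of a hairpin can be loaded, and the arm that accumulates is called the guide. miR-126 is made from an intron of Egfl7, which encodes a protein secreted by endothelial cells, and it is known for upholding VEGF signaling and vessel integrity through inhibitors of that pathway such as Spred1. In the kidney its known site is the endothelium of glomerular and peritubular capillaries. Platelets and some hematopoietic cells also carry it.

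Both mature strands are shown because their seeds differ and their values are described apart. The sequences are those that the array files give for the probes' targets, written 5′ to 3′ with the seed in capitals.
mmu-miR-126-3p: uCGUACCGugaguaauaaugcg
mmu-miR-126-5p: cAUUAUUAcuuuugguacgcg

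The hairpin shows where the 2 strands sit in the precursor. It is the RefSeq sequence of Mir126a (GRCm38.p6, chr2:26591357-26591429, plus strand), with the arms found by exact match in capitals, the 5p arm first.
Mir126a: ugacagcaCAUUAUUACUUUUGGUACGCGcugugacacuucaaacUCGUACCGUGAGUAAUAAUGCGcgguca

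The 5p strand took up bases 9 to 29 of the 73 bases (chr2:26591365-26591385), and the 3p strand bases 46 to 67 (chr2:26591402-26591423). The hairpin lay within the span of Egfl7 (chr2:26581083-26592682), and a second miR gene, Mir126b, overlapped it (chr2:26591363-26591420). The 3p sequence was identical to RefSeq's mmu-miR-126a-3p. Neither seed was carried by another of the 569 targets or by another mature miR in the RefSeq table. The closest other target on the array was miR-467a for the 3p strand and miR-29a* for the 5p strand, each at 8 single-base edits.

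The precision of an array value is set by its spots, and each miR had 6 of them, beside 266 empty spots per channel. The median empty spot lay between 190.3 and 517.3 in the IRI channels, between 33.1 and 44.1 in the sham channels and at 511.6 on the naive array. The mean signal over that background was 1113 to 1411 in IRI, 525.5 to 1057 in sham and only 207.9 in naive. In the day 5 file the channels were headed only as samples A and B, and they were taken as IRI and sham by their place and by their match to the processed values.

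miR-126-3p was among the brightest miRs of these kidneys, and miR-126-5p could not be told from empty spots in most samples. The mean scanner intensity of miR-126-3p ran from 8631 to 20534 in IRI and from 2039 to 13550 in sham, and was 819.3 in naive. It lay between the 95.1th percentile of all 569 miRs, in naive, and the 98.1th, in IRI on day 1 and sham on day 7. A miR was counted as above background where its mean spot exceeded the median empty spot by more than 3 median absolute deviations (MADs). miR-126-3p passed in 17 of 17 samples, at 17.2 MADs in naive and at 152 to 5283 MADs elsewhere, and its brightest spot, at 21188, was below the scanner's ceiling of 65535. Of all miRs, 100 were above background in every sample.

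miR-126-5p passed that limit in 5 of 17 samples, which were IRI on days 1 and 7, sham on days 3 and 7, and naive. The highest value was 7.41 MADs in sham on day 7 and the lowest 0.437 MADs in sham on day 30. The 6 spots behind that highest value were uneven, with an SD of 52.3% of their mean, against at most 20.7% in the other samples. After normalization miR-126-5p stayed between 87.8 and 127.0 on the linear scale, so that it never reached the level of 200 in at least 1 sample by which 162 miRs were called detected. In the authors' processed values it lay between 10 and 39, against 4034 to 10811 for miR-126-3p, on a scale whose median miR stood at 17 to 20. Levels of different probes are not comparable, so these values say which strand was measurable and not how many copies of each were present. Of 166 hairpins with both strands on the array, 15 had both detected, 57 had 1 detected, as miR-126 did, and 94 had none.

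**Figure D1:**
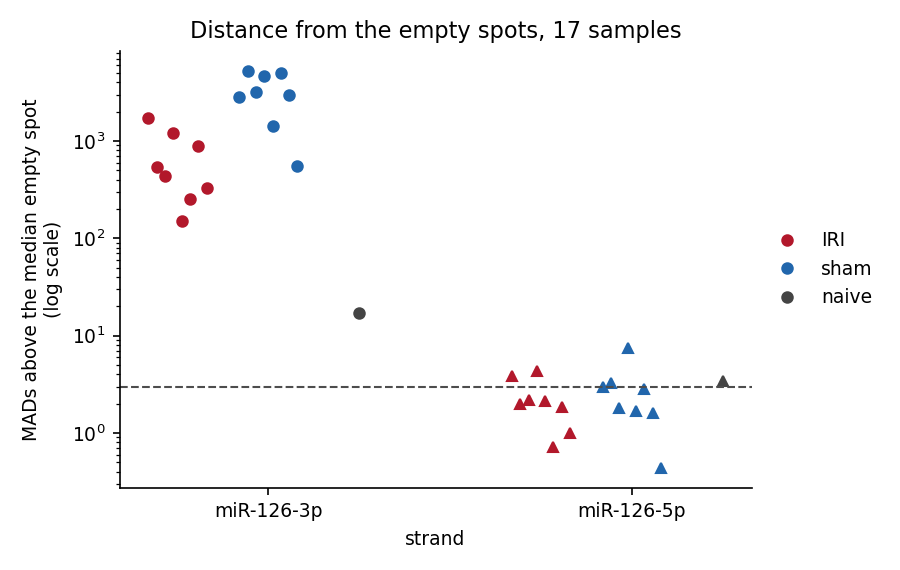
Distance of miR-126-3p (circles) and miR-126-5p (triangles) from the median empty spot of the same channel, in MADs of the empty spots on a log scale, with 1 point per sample in IRI, sham and naive; the dashed line is the limit of 3 MADs. All 17 points of miR-126-3p lie above the line, at 17.2 or more, whereas 5 of the 17 points of miR-126-5p do.

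No shift of miR-126-3p between IRI and sham kidneys passed the test over the 8 days. On the normalized log2 scale the IRI samples had a lowest level of 12.37, a median of 12.70 and a highest of 13.14, with a mean of 12.70 ± 0.24 (SD, n = 8 days). The sham samples had a lowest level of 12.26, a median of 12.76 and a highest of 13.09, with a mean of 12.73 ± 0.26 (SD, n = 8 days). The arms overlapped over nearly their whole range, and in both of them day 30 was the lowest. The highest day was day 1 in IRI and day 7 in sham.

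When the 17 samples were put in order of level, IRI on day 1 came first, followed by sham on day 7 (13.09) and sham on day 14 (12.96). Sham on day 30 came last but for naive. The SD of the spots was 0.025 to 0.28 on the log2 scale. Of the 16 pairs of neighbours in that order, 2 differed by more than 2 standard errors of their spots. These were sham on day 1 over IRI on day 5, and sham on day 30 over naive.

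**Figure D2:**
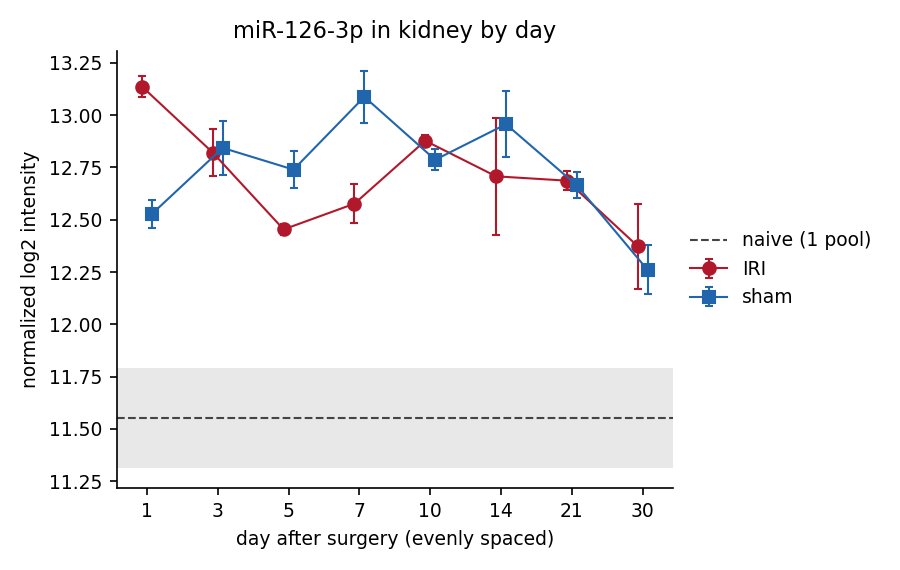
Normalized log2 intensity of miR-126-3p on each day after surgery in IRI (circles) and sham (squares), 1 pool of 3 mice per point, with the naive pool as a dashed line; bars and the grey band are the SD of 6 spots. The IRI and sham points range over 12.37 to 13.14 and 12.26 to 13.09, cross repeatedly and all lie above naive at 11.55.

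Day by day, the log2 IRI/sham ratio of miR-126-3p started at 0.61 (day 1), passed through -0.02 (day 3) and -0.29 (day 5) and reached -0.51 (day 7). It then stood at 0.09 (day 10), -0.25 (day 14), 0.02 (day 21) and 0.11 (day 30). miR-126-3p was therefore higher in IRI on 4 of 8 days, with the widest gap in favor of IRI on day 1, at 1.53-fold, and the widest in favor of sham on day 7, at 0.702-fold. Counted from the highest ratio of each array, miR-126-3p ranked 29 of 162 detected miRs on day 1 and 135 on day 7. The standard error of the spots was 0.015 to 0.078, and on 5 of the 8 days the ratio was more than 2 such errors from 0. That error covers 1 array and not the spread between mice, and without a second pool on any day no single day was tested.

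The mean ratio of miR-126-3p was -0.03 (SE 0.12, n = 8 arrays, limma adjusted p = 0.841), with a 95% confidence interval of -0.29 to 0.24, or 0.815- to 1.18-fold. An exact two-sided sign-flip permutation test over the arrays gave p = 0.789, where the smallest p it allows is 0.0078. Of the 162 detected miRs, 59 passed the limma test, or 36.4%. By the size of its mean ratio miR-126-3p ranked 157 of 162. Its ratio was not flat, with an SD over the days of 0.34, against a median SD of 0.41 over all detected miRs. miR-21, which gives the scale of the strongest injury response here, had a mean ratio of 2.51 (SE 0.19, limma adjusted p = 5.78e-05) and was higher in IRI on 8 of 8 days.

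The sign of so small a mean depended on the values used, at 0.06 in the authors' processed values and 0.11 after plain background subtraction, without passing the test in either. IRI was always Cy3 and sham always Cy5, so a dye bias at the probe cannot be told apart from the mean ratio.

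**Figure D3:**
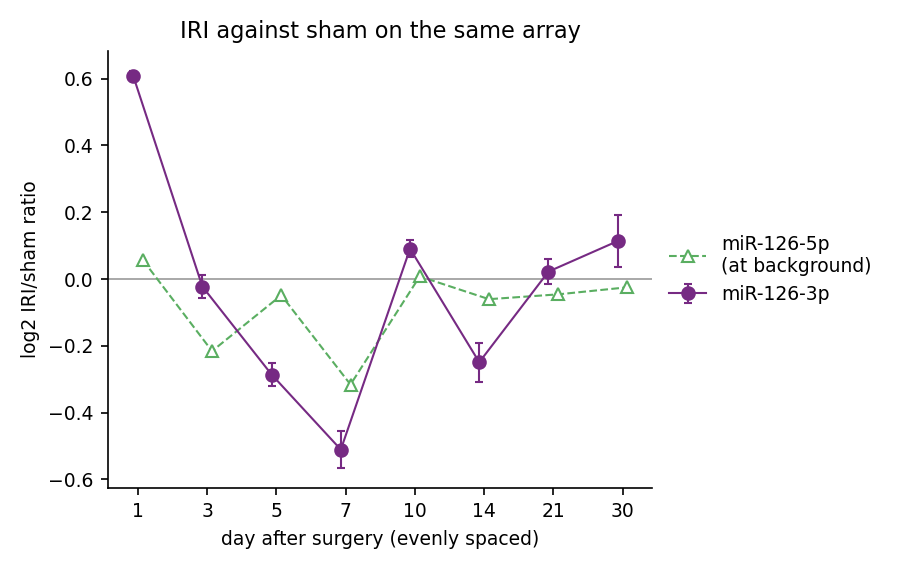
log2 IRI/sham ratio of miR-126-3p (circles, bars are the standard error of 6 spots) and miR-126-5p (open triangles, at background and drawn without bars) on each of the 8 arrays by day after surgery. miR-126-3p runs from 0.61 on day 1 to -0.51 on day 7 and back to 0.11 on day 30, and miR-126-5p stays between -0.32 and 0.06.

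To ask whether the endothelial miR was lost or gained as the kidneys went from injury to repair, levels were fitted against log2(day). A probe's dye bias drops out of a slope where all arrays share it. Within IRI, miR-126-3p had a slope of -0.11 per doubling of the day (SE 0.053, 95% confidence interval -0.22 to 0.01), which over the range from day 1 to day 30 comes to 0.699-fold. It did not pass, with a limma adjusted p of 0.273, an unadjusted limma p of 0.0775 and an exact permutation p of 0.0601 over the 40320 orders of the days. Here 8.64% of the detected miRs passed. Without day 1 the slope within IRI was -0.05.

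Within sham the slope of miR-126-3p was -0.02 (SE 0.065, limma adjusted p = 0.995, exact permutation p = 0.733), with 1.23% of detected miRs passing. With median scaling of the channels it was -0.27 (SE 0.19) and the slope within IRI -0.18 (SE 0.15), and neither passed. The slope of the IRI/sham ratio itself was -0.08 (SE 0.077, limma adjusted p = 0.601, exact permutation p = 0.343, 95% confidence interval -0.26 to 0.10), with 2.47% of detected miRs passing. Without day 1 it turned to 0.08. Neither loss nor gain of miR-126-3p with time was therefore detectable with 8 days of 1 pool each.

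Compared with naive, miR-126-3p was higher after either kind of surgery. The naive level was 11.55. IRI samples exceeded it by 0.82 to 1.58 and sham samples by 0.71 to 1.53, in 8 of 8 samples of each arm. On average IRI was 2.22-fold and sham 2.26-fold over naive. In the authors' processed values naive was at 4034, the IRI samples were 1.35- to 2.66-fold of it and the sham samples 1.12- to 2.68-fold. Such a pattern was common. Naive lay below all 16 surgical samples in 33.3% of the detected miRs (54 of 162), and above all of them in 38 miRs. The median detected miR was itself 0.20 above naive in IRI and 0.24 in sham, and miR-126-3p stood at the 81.5th and the 82.7th percentile of those differences. In the processed values 22 of 114 miRs at 200 or more had naive below every surgical sample.

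There was 1 naive pool and hence no test, and the naive array differed from all others in being hybridised alone and in its low signal. It shared the dye Cy3 with the IRI samples, whereas sham was Cy5, so that dye and surgery cannot be told apart in the difference between sham and naive. Scaling each channel by its median put IRI 5.03 and sham 5.21 above naive on the log2 scale. The size of the difference from naive thus rested on the scaling between arrays. Under median scaling miR-126-3p was above naive in each of the 16 samples, by at least 3.54, but this is no independent check of the direction. Over background, miR-126-3p was at 307.7 on the dim naive array and at 1994.8 or more elsewhere. A median taken over mostly dim miRs does not correct for that gap.

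miR-126-5p gave no difference that could be separated from background. Its normalized level had a mean of 6.59 ± 0.068 (SD, n = 8 days) in IRI and of 6.67 ± 0.16 (SD, n = 8 days) in sham, and was 6.61 in naive. The log2 IRI/sham ratio by day was 0.06, -0.22, -0.05, -0.32, 0.01, -0.06, -0.05 and -0.02 in order of days, so that it was lower in IRI on 6 of 8 days. The mean was -0.08, with an exact sign-flip permutation p of 0.0859, and without day 1 it was -0.10, with an exact permutation p of 0.0312. With plain background subtraction the mean was -0.27 and in the authors' processed values -0.017, and it did not pass in either. The day with the lowest ratio, day 7, was also the day with the brightest sham value, the one with uneven spots. In the authors' processed values the ratio of day 7 was 0.42, and the lowest was -0.94 on day 5. With the median of the spots in place of their mean, the mean ratio was -0.042 (exact permutation p = 0.117). The slopes of miR-126-5p on log2(day) were -0.02 within IRI (exact permutation p = 0.226) and -0.02 within sham (exact permutation p = 0.63). They were -0.21 and -0.11 in the authors' processed values and -0.13 and -0.085 with plain background subtraction, and did not pass in either.

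The strands could be compared only by how they changed, since a probe's level cannot be set against that of another. The ratio of miR-126-3p exceeded that of miR-126-5p by 0.05 on average, with an SD over days of 0.26 (n = 8 arrays, positive on 5 of 8 days, exact sign-flip permutation p = 0.633). The difference had a slope of -0.08 per doubling of the day (exact permutation p = 0.213). The slope of the 3p level minus the 5p level was -0.08 within IRI (exact permutation p = 0.149) and -0.0025 within sham (exact permutation p = 0.962). With median scaling of the channels it was -0.15 within IRI and -0.26 within sham, and did not pass in either arm. With plain background subtraction the mean difference was 0.38, with an exact permutation p of 0.0312. On 1 of the 8 days, day 7, miR-126-5p was above background in both channels, with uneven spots in sham. With a floor of 200 the mean difference was -0.03, equal to the ratio of miR-126-3p alone. The balance of the strands was therefore not measurable here, and none of these values speaks to it in either direction. In the 15 hairpins with both strands detected, the mean ratios of the strands differed in size by a median of 0.38 and at most by 1.44.

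The correlations of the strands carry the same limit, since they use values of miR-126-5p that were mostly at background, and they are given as computed. Over the ratios of the 8 arrays Pearson's r was 0.72 (n = 8, exact permutation p = 0.0479, adjusted p = 0.144 over 3 relations) and Spearman's rho 0.88 (exact permutation p = 0.0072, adjusted p = 0.0217). Without days 1 and 7, which lay farthest from the median of miR-126-3p, r was 0.14 and rho 0.71. In the authors' processed values r was 0.38 (exact permutation, adjusted p = 0.354). Across the 8 sham samples r was 0.62 (exact permutation p = 0.103, adjusted p = 0.154) and rho 0.71 (exact permutation p = 0.0576, adjusted p = 0.0864), and r was 0.24 without days 7 and 30. Across the 8 IRI samples r was 0.20 (exact permutation p = 0.640) and rho 0.17 (exact permutation p = 0.703), and r was -0.57 without days 1 and 30. That r was 0.78 in the authors' processed values (exact permutation, adjusted p = 0.0576) and 0.89 with median scaling of the channels (exact permutation, adjusted p = 0.0094). Signal of both probes shared the array and its normalization, and the part of these in the relations was not tested.

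Whole kidney was measured, so fewer endothelial cells and less miR per cell cannot be told apart in any of these values. miRs of other cell types therefore stand beside miR-126-3p, by their counts and medians. Here 18.5% of all detected miRs were higher and 17.9% lower in IRI over the 8 days.

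Among 13 vessel and angiogenesis miRs on the array, none of which is confined to endothelium, 11 were detected. Of these 3 were higher in IRI, 1 was lower and 7 did not pass, with a median ratio of 0.07. miR-92a, which restrains vessel growth, was higher by 0.63 (SE 0.12, limma adjusted p = 0.0098). miR-27a was higher by 0.80 (SE 0.18, limma adjusted p = 0.0125), and miR-218, whose host genes are the Slit ligands, by 1.06 (SE 0.33, limma adjusted p = 0.0355). miR-378 was lower by 0.64 in IRI, with a ratio of -0.64 (SE 0.22, limma adjusted p = 0.0470). The pair miR-221 and miR-222, which endothelium shares with many cell types, had ratios of 0.15 and -0.24 and did not pass, as miR-126-3p did not.

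The lists of other cell types are given by their counts. Of the kidney epithelium list 11 of 14 miRs were detected, 6 were lower in IRI and 5 did not pass, with a median ratio of -0.41. miR-192, of the proximal tubule, had a ratio of -0.88 (limma adjusted p = 0.0125) and miR-200b, of epithelium in general, of -0.42 (limma adjusted p = 0.0198). The fibroblast miRs miR-199a-3p, miR-199a-5p and miR-214 were all higher in IRI, 3 of 3, with a median of 1.16. The slope of the ratio of miR-199a-3p rose as well, at 0.39 per doubling of the day (limma adjusted p = 0.0257), where 1.23% of detected miRs rose. All 3 detected leukocyte miRs, miR-223, miR-150 and miR-155, were higher too, with a median of 0.98, while miR-142-3p and miR-142-5p did not reach detection. Their summed level was 1259 to 3066 in IRI, 618.6 to 990.2 in sham and 435.4 in naive. The smooth muscle and pericyte miRs miR-143 and miR-145 had ratios of -0.13 each and did not pass.

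The erythroid miRs miR-451 and miR-486 are carried by red cells, and their signal follows the blood left in the tissue. Neither passed in the mean ratio, whereas both fell in the slope of the ratio, at -0.79 (limma adjusted p = 0.0124) and -0.59 (limma adjusted p = 0.0251), where 1.23% of detected miRs fell. Both calls, and that of miR-199a-3p, were lost with median scaling of the channels, without the filter on dim miRs, and without day 21 or day 30, and at least 1 of the erythroid calls without day 7 or day 14. Without the replicate block or without day 3, 2 miRs passed in all, so at least 1 of these calls was lost there too. The mean ratio of the erythroid list was 1.28 on day 1, the day on which miR-126-3p was highest in IRI. It was 0.08 (day 3), -0.74 (day 5), -0.60 (day 7) and -0.08 (day 10) next, and then went down to -1.69 (day 14) and -2.20 (day 30), when miR-126-3p was at -0.25 and 0.11. All 6 lists had a mean ratio above 0 on day 1, with leukocytes at 0.79, smooth muscle at 0.46, vessel miRs at 0.38, epithelium at 0.17 and fibroblasts at 0.15. miR-126-3p, at 0.61, ranked 29 of 162 that day. The share of all detected miRs above 0 on day 1 is not given here, so a pattern of the lists and a shift of that array cannot be told apart. The summed level of the erythroid list was 229.2 to 1124 in IRI, 306.1 to 1398 in sham and 191.9 in naive. The naive sum was below the level of 200 that a single miR needed to be called detected, and the lowest IRI sum was little above it, so these values lie near background. The part of blood in the levels of miR-126-3p was not tested.

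**Figure D4:**
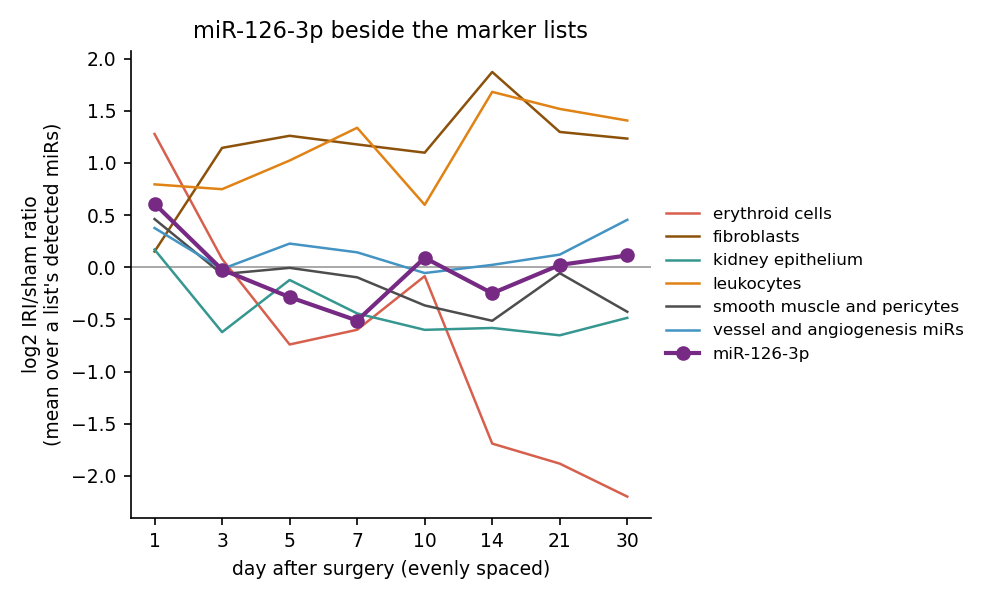
log2 IRI/sham ratio by day after surgery of miR-126-3p (thick line with circles) and the mean ratio over the detected miRs of 6 marker lists (thin lines), from the same 8 arrays. miR-126-3p stays between -0.51 and 0.61, the fibroblast and leukocyte lists lie above 0 on all days, and the erythroid list goes from 1.28 on day 1 to -2.20 on day 30.

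The miRs whose levels varied most like miR-126-3p were found over the 16 IRI and sham samples, each arm centred on its own mean, among 161 other detected miRs. miR-200c came first with r = 0.63, followed by miR-187 (0.61), miR-34a (0.56), miR-10b* (0.55) and miR-30a* (0.55). The 90th percentile of all r was 0.43 and the other strand, miR-126-5p, had 0.47. miR-200c belongs to the epithelial miR-200 family and miR-34a is a target of p53, and none of the 5 is in the vessel and angiogenesis list. Of the 5, miR-187 alone passed in the mean ratio, at -0.75 (limma adjusted p = 0.0330). For miR-126-5p the closest were miR-30a* (0.82), miR-201 (0.76) and miR-27a (0.76), against a 90th percentile of 0.58. miR-126-5p was above background in 4 of those 16 samples, so that its order of likeness rests mostly on background values. These values describe 16 samples that share arrays and a normalization and carry no test.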

How the data were processed

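The authors deposited scanner output with the mean intensity of every spot, neither background-corrected nor normalized, and a table of processed intensities, 1 per miR and sample. How that table was made is not stated in the paper, labels or files used here. RNA was extracted with miRNeasy per the labels. Channels were corrected with normexp (offset 50), the 6 spots of a miR were averaged, channels were normalized by loess within arrays, and mean log2 intensities were quantile-normalized between arrays, naive included. miRs at 200 or more in at least 1 of 17 samples (162) were tested in R 4.3.3 with limma 3.58.1 on each array's log2 ratio of IRI over sham, which makes the array the block, with Benjamini-Hochberg adjustment at 0.05. Pools of one day shared the array, and this pairs them. Single values were tested by exact permutation of signs or days. p-values treat days as replicates, so their spread holds change with time as well as error.

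miR-126-5p stayed below detection and was tested by permutation only. Day 10, which the study's analysis left out, was kept. The members and marker lists were chosen with earlier results of these data known. The miRs named are both strands, the 5 and the 3 most like each by Pearson's r, the defining markers, counts of 5 or fewer, and miR-21. miR-221 and miR-222 were named after their values were seen, and so were miR-486, miR-142-5p, miR-199a-5p and miR-214 as members of small lists. The programs were tested on simulated data. Sequences came from the array files and RefSeq (GRCm38.p6), where 1 of the 2 mature strands had an entry.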

Additional observations from a re-analysis of the deposited data

How the results depend on the processing

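Of 340 values recomputed for 23 results, 255 kept their direction and their side of the threshold or moved by less than the spread over days (for counts of miRs, stayed within 1.5 times), and no value of miR-126-3p between IRI and sham passed the test under any alternative. The 255 include values that a setting could not move, such as the ratio of a single miR under another filter on dim miRs. Without the replicate block of the array, the mean ratio of miR-126-3p was -0.03 (limma adjusted p = 0.873) and its slope -0.08 (limma adjusted p = 0.678), and no call of the mean or slope of either strand's ratio changed. Causes of the changes below were not tested.

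With the authors' processed values the mean ratio of miR-126-3p was 0.063, the slope of the miR-126-5p ratio -0.11, the strand difference had a slope of 0.046, of 0.073 within IRI and of 0.028 within sham, miR-126-5p was 0.34 (IRI) and 0.36 (sham) above naive, and miR-126-3p was 0.89 above naive in sham. With plain background subtraction the mean ratio of miR-126-3p was 0.11, the slope of the miR-126-5p ratio -0.049, the mean strand difference 0.38 (exact permutation p = 0.0312), its slope 0.037 within IRI and 0.049 within sham, and miR-126-5p was 0.050 (IRI) and 0.32 (sham) above naive. With median scaling of the channels the slope of the ratio was 0.091 for miR-126-3p and -0.011 for miR-126-5p, the strand difference had a mean of -0.15 and a slope of 0.10 (-0.15 within IRI and -0.26 within sham), the correlation of the strands within IRI was 0.89 (exact permutation, adjusted p = 0.0094), the slope of miR-126-3p was -0.18 within IRI and -0.27 within sham, the mean ratio of miR-126-5p was -0.033, miR-126-3p was 5.03 (IRI) and 5.21 (sham) above naive, and miR-126-5p 0.0042 above naive in IRI. With the median of the spots the slope of the miR-126-5p ratio was -0.0089, that of the strand difference within sham 0.018, miR-126-3p was 1.43 (IRI) and 1.46 (sham) above naive, and miR-126-5p in sham differed from naive by -0.00077. A floor of 200 gave a mean strand difference of -0.029, since it sets all values of miR-126-5p equal.

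Leaving out each day in turn gave ranges of -0.12 to 0.040 for the mean ratio of miR-126-3p, -0.14 to 0.080 for its slope and -0.13 to 0.052 for its slope within sham. For miR-126-5p the mean ratio ranged from -0.10 to -0.047, with an exact permutation p of 0.0312 without day 1, and its slope from -0.013 to 0.056. The strand difference ranged from -0.020 to 0.093 in its mean and from -0.13 to 0.025 in its slope. Its slope ranged from -0.096 to -0.042 (without day 1) within IRI and from -0.066 to 0.061 within sham. The correlation of the strands within IRI ranged from -0.25 (without day 1) to 0.62.

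The numbers of miRs that passed moved more. For the mean ratio, 59 in all, 100 passed without a filter on dim miRs, 30 with a floor of 200, and 26 to 59 without 1 day (over 1.5 times fewer without day 7, 14, 21 or 30). For the slope of the ratio, 4 in all, 14 passed on day in place of log2(day), 8 in the processed values, 2 without the replicate block, 0 with median scaling or without a filter, and 0 to 18 without 1 day (most without day 1, fewer without day 3, 7, 14, 21 or 30). For the slope within IRI, 14 in all, 7 passed with plain background subtraction, 2 with a floor of 200 or no filter, 0 with median scaling, and 2 to 21 without 1 day (fewer without day 1, 3, 5, 7, 14 or 21). For the slope within sham, 2 in all, 5 passed with plain background subtraction, 1 in the processed values, with a floor of 200, with no filter or with an intensity trend, 0 with median scaling, and 0 to 4 without 1 day (fewer without day 3, 5, 14, 21 or 30, more without day 10). Empty spots limit miR-126-5p in 12 of 17 samples.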
